A study of Ictidomys tridecemlineatus with 5 samples.

Results

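Molecular chaperones were compared between eye and retina of the thirteen-lined ground squirrel, Ictidomys tridecemlineatus, a day-active hibernator whose retina is rich in cones. The members are the Swiss-Prot names whose description opens with a heat shock protein, heat shock 70, heat shock cognate, heat shock-related, DnaJ homolog or T-complex protein 1 subunit wording. There were 75 such names among 15938 in the 2 tissue tables. They divide by name into 7 small heat shock proteins, 15 HSP70 and HSP110 names, 4 HSP90 names, 39 DnaJ homologs, 9 subunits of the TCP-1 chaperonin and 1 unplaced name.

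Total RNA was sequenced from wild-type animals in 2 eye libraries and 3 retina libraries, and each library preparation pooled RNA from 4 animals. The labels name the tissues only as eye and retina, so which parts of the eye were taken is known here only from the markers given below. No label used here states age, sex, season or treatment. The deposited tables hold 1 value per assembled transcript and tissue, with no values per library, so no difference below has a replicate check and no test was run.

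Heat shock proteins bind unfolded or partly folded proteins and keep them from aggregating. Small heat shock proteins hold such clients without using ATP, HSP70 binds and releases them in an ATP cycle that J-domain (DnaJ) proteins start and HSP110 proteins reset, and HSP90 completes the folding of kinases and receptors. The TCP-1 chaperonin is a double ring of different subunits that encloses its clients, actin and tubulin above all. In photoreceptors these systems serve the steady synthesis of outer segment proteins, and in the lens small heat shock proteins of the alpha-crystallin type keep the fibre cells clear.

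Levels are given in RPKM, read number scaled by transcript length and sequencing depth, for the highest transcript carrying a name. A difference is the eye value of log2(RPKM + 1) less the retina value, and it understates the ratio of low genes. The depth behind the scaling was 264219334 reads in eye and 355988270 in retina, so 1 RPKM on 1000 bases is 264 reads in eye and 356 in retina. Among the members, the half-width of the 95% counting interval was 0.03 at the median and 0.15 at most. It covers counting error only and says nothing of differences between animals or libraries. The interval also takes the reads of a transcript as its own. Recovered reads summed to 19.2 times the scaling total in eye and 10.5 times in retina, so reads may recur across transcripts.

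The labelled tissues were checked against marker genes, with levels summed over each list. All 6 lens genes were listed in eye, at 6414 RPKM summed, and 5 in retina, at 5.31 RPKM, and MIP was not listed in retina. The 5 corneal genes summed to 5287 RPKM in eye, and the 3 listed in retina to 1.96 RPKM, without KRT3 and ALDH3A1. The 4 pigment genes summed to 489 RPKM in eye and 27.1 RPKM in retina, and the 5 smooth muscle genes to 425 RPKM in eye and 83.2 RPKM in retina, where CNN1 and DES were not listed. The 6 skeletal muscle genes summed to 1022 RPKM in eye and 588 RPKM in retina, where 584 RPKM came from a 115-base transcript named CKM, and TNNT3 and MYH2 were not listed. The 6 photoreceptor genes summed to 5727 RPKM in eye and 9445 RPKM in retina, and the 5 inner retina genes to 436 RPKM in eye and 726 RPKM in retina. Transcripts under 200 bases also set the levels of ARR3, RCVRN, CRYAA and KRT15 in eye, and of PDE6H and GUCA1A in retina. With transcripts of 200 bases or more, PDE6H and GUCA1A were higher in eye, at differences of 0.33 and 1.15. ARR3, RCVRN, SAG and RBP3 were then lower, at -2.08, -4.25, -0.66 and -0.69, and CRYAA and KRT15 still higher, at 10.3 and 7.43. In tissue mixtures such as these, fewer cells of a type and less RNA per cell cannot be told apart.

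The small heat shock proteins had the largest family difference, and the members as a whole were spread much as all proteins were. Of the 75 members, 72 were listed in eye and 72 in retina, and 69 were in both and passed the filter of 1 RPKM in either tissue. Of these 69, 8 were at least 2-fold higher in eye, against a background of 11.8% of the 13383 proteins compared. A further 2 were at least 2-fold lower in eye, against a background of 3.6%, and 59 lay within 2-fold, as did 84.6% of all proteins. The median difference of the members was -0.04, and that of all proteins -0.004. By direction alone, 41 members were lower in eye and 28 higher, where 50.3% and 49.7% of all proteins were. With totals over proteins made equal, 54 members were lower and 15 higher, beside 8917 and 4539 of the 13456 proteins then compared. Of the 8 members at least 2-fold higher, 5 were small heat shock proteins by name, HSPB11 among them. By near-complete transcripts, which span at least 90% of the longest alignment of their name, 61 members could be compared. That alignment is the longest found here and need not cover the protein, so the name HSP83, on 107 and 111 bases, is included. Of the 61, the 2-fold mark was passed by 8 upward in eye and 0 downward, against backgrounds of 9.14% and 2.01%.

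**Figure D1:**
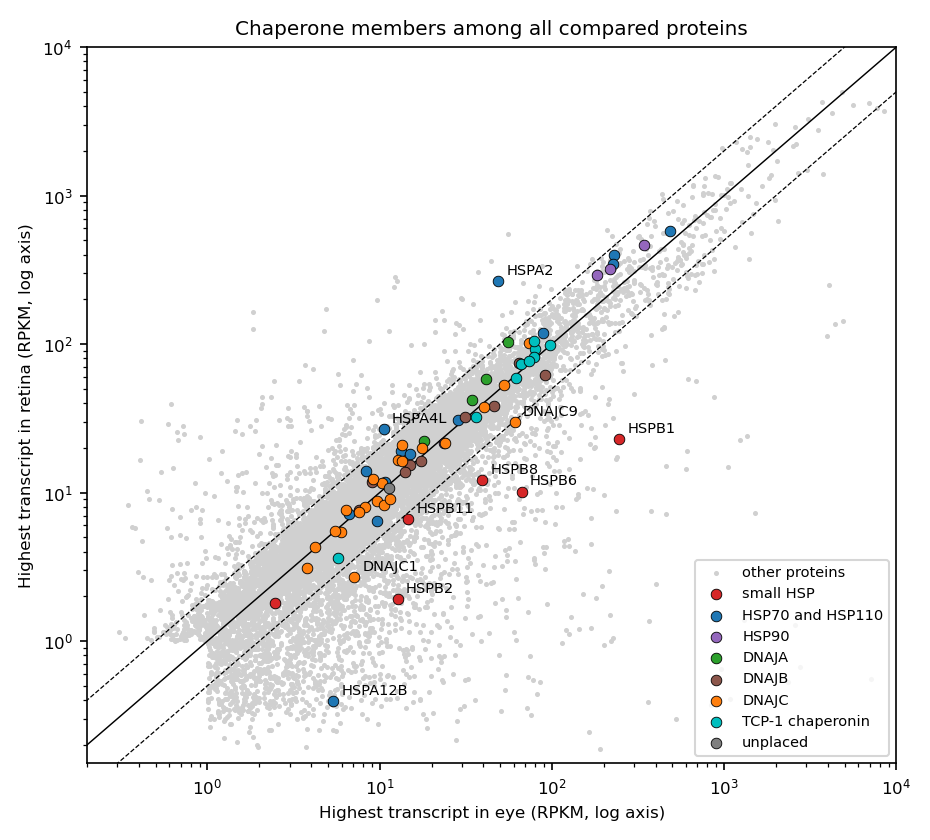
Level of the highest transcript in eye (x axis, RPKM, log scale) and in retina (y axis, RPKM, log scale) for the 69 members compared, coloured by family, over all other proteins in grey. The solid line marks equal levels and the dashed lines a 2-fold difference, and the 10 named points lie at or beyond 2-fold, with HSPB1 at 244 RPKM in eye and 22.8 RPKM in retina.

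The members were among the names with higher RNA levels in both tissues. Their median percentile among all names of a table was 72.1 in eye and 73.5 in retina, and 22 members in eye and 21 in retina lay in the top 10% of all names. Both counts include the names HSP70, HSP7D and HSP83, on transcripts of 107 to 139 bases that may be fragments of other members. The retina count also includes HSPA2, on 119 bases, while its near-complete retina transcripts stood at 10.9 RPKM. The highest were HSPA8, at 487 RPKM in eye and 577 RPKM in retina, and HSP90AA1, at 342 RPKM in eye and 467 RPKM in retina. The lowest members were DNAJC5B in eye, at 0.87 RPKM, and DNAJC22 in retina, at 0.30 RPKM.

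Small heat shock proteins were higher in eye than in retina in all 6 members compared, with a median difference of 1.93, and this direction was the same under every scaling tried. The 6 include HSPB11, which is counted here by its name only. HSPB1 (HSP27), a widely expressed stress protein that caps and protects actin filaments, stood at 244 RPKM in eye and 22.8 RPKM in retina, a 10.7-fold ratio and a difference of 3.37. The eye value came from a transcript of 123 bases, so it was set beside the longer ones. An eye transcript of 1123 bases stood at 211 RPKM, and the only retina transcript, of 1015 bases, at 22.8 RPKM, which gives a difference of 3.16. Of 16 HSPB1 transcripts in eye, 13 were under 200 bases and lay between 186 and 244 RPKM, and 2 longer fragments lay at 25.7 and 7.22 RPKM.

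HSPB6 (HSP20), a muscle-rich protein linked to smooth muscle relaxation, stood at 66.6 RPKM in eye and 10.1 RPKM in retina, a difference of 2.60. A second eye transcript of 891 bases stood at 25.1 RPKM, so even the lower eye transcript was above the retina one, and by best-matching transcripts the difference was 1.23. HSPB2, first described as a binding partner of the myotonic dystrophy kinase in muscle, stood at 12.7 RPKM in eye and 1.92 RPKM in retina, a difference of 2.23. HSPB8, which works with BAG3 in clearing damaged proteins in muscle, stood at 39.3 RPKM in eye and 12.1 RPKM in retina, a difference of 1.63. For HSPB2, HSPB6 and HSPB8, the values in each tissue came from transcripts of 704 bases or more. The HSPB2 hits were unlike, with 100% similarity to a mouse entry in eye and 63% to a human entry in retina, each over 162 residues.

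The 2 remaining members compared differed less. HSPB11, which carries a heat shock name but acts as IFT25 in intraflagellar transport, stood at 14.7 RPKM in eye and 6.62 RPKM in retina, a difference of 1.04, or 0.76 with a pseudocount of 5. HSPB3, another muscle member, stood at 2.48 RPKM in eye and 1.79 RPKM in retina, a difference of 0.32. HSPB7, known from heart and skeletal muscle, was listed in the eye table only, on transcripts at 8.95 and 8.43 RPKM. Among the marker lists given above, lens, cornea, skeletal muscle, smooth muscle and pigment genes all summed higher in eye than in retina. Their part in the small heat shock protein values was not tested.

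HSPB2 lies beside the lens gene CRYAB in the RefSeq annotation of assembly mIctTri1.hap1, with 1 predicted locus between them. CRYAB, the alpha-crystallin B chain and itself a small heat shock protein under another description, stood at 1365 RPKM in eye and 24.1 RPKM in retina. Its difference of 5.77 is larger than the 2.23 of HSPB2. The deposited values do not say whether counting kept to the strand, and whether these neighbours shared any reads was not tested.

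**Figure D2:**
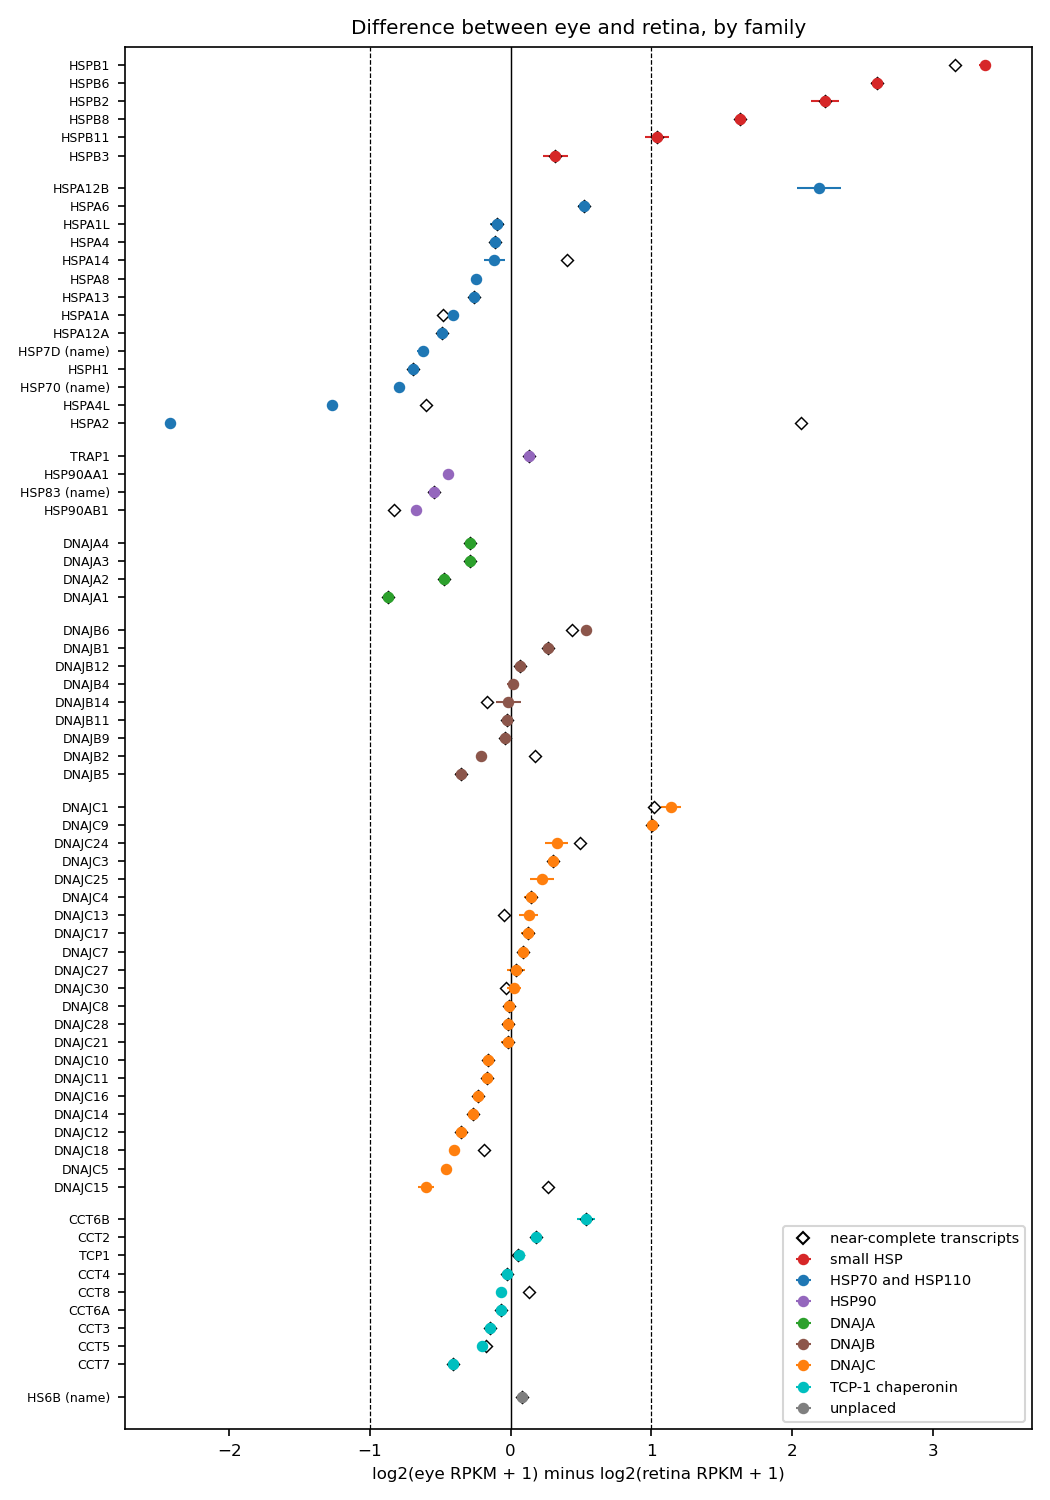
Difference between eye and retina on the log2(RPKM + 1) scale for the 69 members compared, grouped by family, with filled points for the highest transcript, bars for the 95% counting interval and open diamonds for near-complete transcripts where both tissues had one. All 6 small heat shock proteins lie right of 0, 12 of 14 HSP70 and HSP110 names and all 4 DNAJA proteins lie left of it, and HSPA2 lies at -2.42 by its highest and at 2.06 by its near-complete transcripts.

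HSP70 and HSP110 names were mostly a little lower in eye by their highest transcripts, with 12 of 14 below the retina level and a median difference of -0.33. With transcripts of 200 bases or more, 9 of 12 were lower, with a median of -0.18. By near-complete transcripts 7 of 10 were lower, with a median of -0.19. The constitutive HSPA8 (HSC70), which also strips clathrin from vesicles, stood at 487 RPKM in eye and 577 RPKM in retina, a difference of -0.24. Its longer eye transcripts ranged down to 428, 295 and 225 RPKM, and the retina ones to 525 and 359 RPKM, so the ranges of the tissues overlapped. The difference was -0.83 by the best-matching transcript of each tissue.

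The stress-inducible HSPA1A stood at 88.6 RPKM in eye and 118 RPKM in retina, a difference of -0.41. HSPA1L, its close relative, stood at 6.62 RPKM in eye and 7.13 RPKM in retina, and HSPA6, another inducible form in humans, at 9.70 RPKM in eye and 6.45 RPKM in retina. By their highest transcripts, HSPA6 and HSPA12B were the 2 HSP70 names compared that were higher in eye. HSPA1A and HSPA1L were not found by symbol in the RefSeq table, and near-identical HSP70 genes can share reads, so their split is uncertain.

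HSPA2, an HSP70 that is abundant in testis and present in brain, changed direction with the transcript used. Its highest transcripts stood at 48.6 RPKM in eye, on 2514 bases, and at 264 RPKM in retina, on 119 bases, a difference of -2.42. The near-complete transcripts stood at 48.6 and 48.0 RPKM in eye, against 10.9 RPKM for both in retina, a difference of 2.06. The retina fragments that set the first value, at 264 and 230 RPKM, lay within the 142 to 577 RPKM spanned by the retina transcripts named HSPA8. Which HSP70 gene those fragments came from was not tested.

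The HSP110 proteins, which exchange the nucleotide of HSP70, were lower in eye. HSPA4 stood at 28.3 RPKM in eye and 30.6 RPKM in retina, a difference of -0.11. HSPH1 stood at 8.30 RPKM in eye and 14.0 RPKM in retina, a difference of -0.69. HSPA4L stood at 10.5 RPKM in eye and 26.8 RPKM in retina, a difference of -1.27, but the retina value came from 908 bases and the eye value from 8981. With near-complete transcripts HSPA4L stood at 10.5 RPKM in eye and 16.5 RPKM in retina, a difference of -0.60 that no longer reached 2-fold.

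HSPA12B, a distant HSP70 relative known from endothelium, stood at 5.37 RPKM in eye and 0.39 RPKM in retina, a difference of 2.19 with a counting interval of 2.04 to 2.35. It passed the filter on low values through eye alone, and with pseudocounts of 0.1 and 5 its difference was 3.47 and 0.94, the last below 2-fold. Its retina value rests on a single transcript of 200 bases with 28 reads, against 4748 bases in eye. Its paralog HSPA12A, known from brain, stood at 13.3 RPKM in eye and 19.0 RPKM in retina, a difference of -0.48. HSPA13 and HSPA14 differed by -0.26 and -0.11, and HSPA14 by 0.40 with near-complete transcripts.

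Other HSP70 names rested on short fragments alone, have no gene of their own here and may be further fragments of the genes above. With mammalian hits only, which leaves most of them out, 10 of 12 HSP70 and HSP110 names were lower in eye. The name HSP70, from hits to fish and invertebrate entries, stood at 230 RPKM in eye and 399 RPKM in retina on transcripts of 111 and 139 bases. The name HSP7D, from hits to insect entries, stood at 225 RPKM in eye and 346 RPKM in retina, on 107 and 119 bases. A pig entry, HSP7X, was listed in eye only, at 20.5 RPKM on 158 bases.

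The cytosolic HSP90 names were lower in eye, and mitochondrial TRAP1 was not. HSP90AA1, the inducible alpha form, stood at 342 RPKM in eye and 467 RPKM in retina, a difference of -0.45. The retina value came from 123 bases, and the longest transcripts stood at 239 RPKM on 4035 bases in eye and 333 RPKM on 4826 bases in retina. With transcripts of 200 bases or more its difference was 0.04, so its direction depends on the fragments used. HSP90AB1, the constitutive beta form, stood at 182 RPKM in eye and 290 RPKM in retina, a difference of -0.67. It was -0.83 with near-complete transcripts, of 5292 bases in eye and 2737 in retina. How far these unequal lengths set that value was not tested. The name HSP83, the fly form, stood at 218 RPKM in eye and 319 RPKM in retina, on 107 and 111 bases. TRAP1 stood at 23.5 RPKM in eye and 21.4 RPKM in retina, a difference of 0.13. It was -0.14 when totals over proteins were made equal, and 0.11 once the median of all proteins was taken off.

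**Figure D3:**
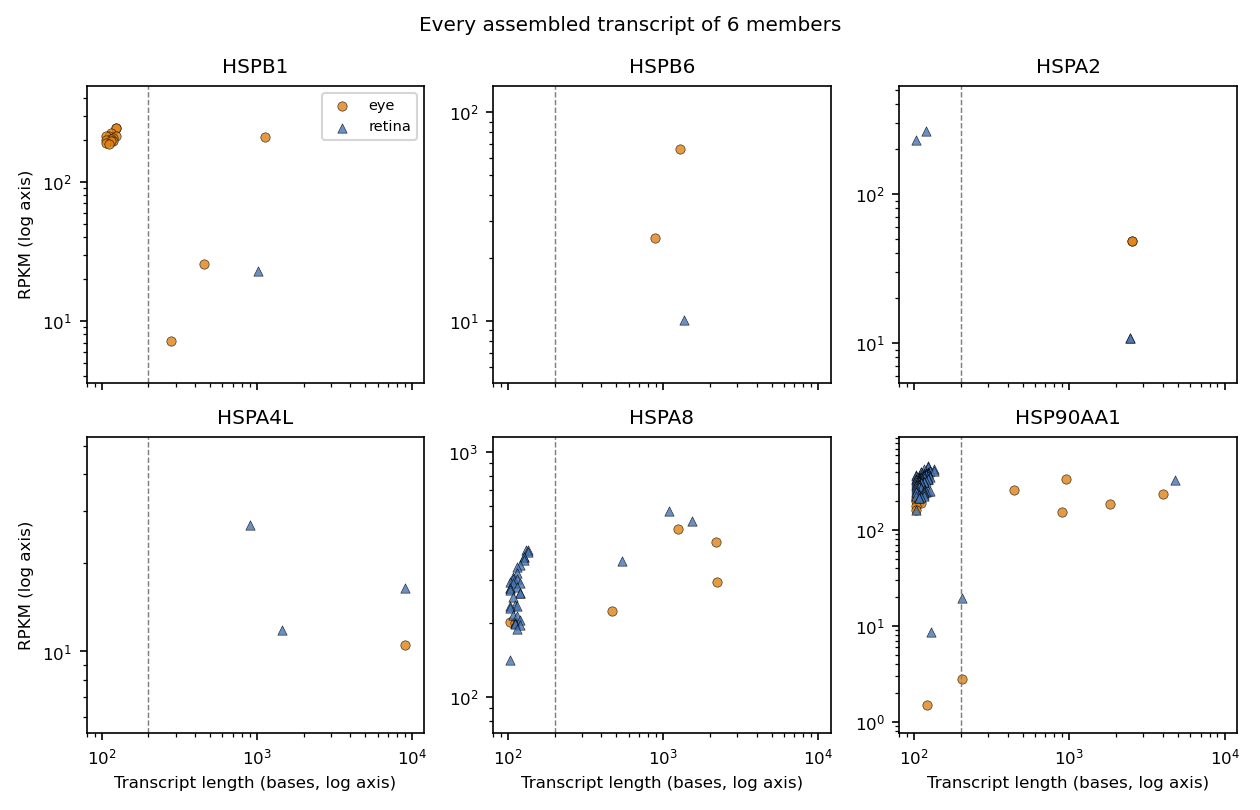
Level (y axis, RPKM, log scale) against length (x axis, bases, log scale) of every assembled transcript of 6 members, with circles for eye and triangles for retina and a dashed line at 200 bases. The 13 short HSPB1 transcripts are all from eye, the short HSPA2 transcripts at 264 and 230 RPKM are from retina, and HSP90AA1 has 83 transcripts in retina against 14 in eye.

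Short transcripts were spread unevenly over the families and tissues. Of the members' transcripts, 40 of 197 in eye (20.3%) and 170 of 343 in retina (49.6%) were under 200 bases. The HSP90 names had 11 of 26 in eye and 97 of 105 in retina, and the HSP70 and HSP110 names 12 of 34 in eye and 72 of 94 in retina. Small heat shock proteins went the other way, with 13 of 26 in eye, all of them from HSPB1, and 1 of 8 in retina. The DNAJC proteins had none, over 44 transcripts in eye and 55 in retina. A short transcript set the level of 5 of 72 members in each tissue. What produced the short transcripts was not tested.

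The J-domain proteins of class A, which carry a zinc-binding region and hand clients to HSP70, were lower in eye in all 4 members, with a median difference of -0.38. DNAJA1 stood at 55.9 RPKM in eye and 103 RPKM in retina, a difference of -0.87, on transcripts of 5006 and 2760 bases. These values are 73911 reads in eye and 101167 in retina, where the scaling depth was 264219334 and 355988270 reads. Retina transcripts of 3799 and 4277 bases, with shorter alignments, stood at 27.2 and 21.3 RPKM. How far the unequal lengths set the difference was not tested. DNAJA2 stood at 41.2 RPKM in eye and 57.7 RPKM in retina, a difference of -0.47, which was 0.19 by the best-matching transcripts. DNAJA4 stood at 34.3 RPKM in eye and 42.0 RPKM in retina, and mitochondrial DNAJA3 at 18.0 RPKM in eye and 22.2 RPKM in retina. DNAJA1 and DNAJA2 had the largest differences of the class, and none of the 4 reached 2-fold on the authors' scale.

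Class B proteins lay close to equal, with 4 of 9 higher in eye, 5 lower and a median difference of -0.02. With totals over proteins made equal, 1 of the 9 was higher and 8 lower, where 8917 of all 13456 proteins were lower. DNAJB6, a suppressor of polyglutamine aggregation, stood at 90.6 RPKM in eye and 62.3 RPKM in retina, a difference of 0.53. DNAJB2, a neuronal J protein that binds ubiquitin, stood at 64.2 RPKM in eye and 74.4 RPKM in retina, a difference of -0.21 that was 0.17 with near-complete transcripts. DNAJB1, the heat-inducible HSP40, stood at 46.1 RPKM in eye and 38.1 RPKM in retina. DNAJB9, of the endoplasmic reticulum, stood at 31.1 RPKM in eye and 32.0 RPKM in retina. The other 5 ranged from 7.58 to 17.3 RPKM in eye and from 7.67 to 16.4 RPKM in retina. DNAJB13, known from sperm flagella, was listed in retina only, at 0.43 RPKM.

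Class C proteins, a mixed class sharing little beyond the J domain, were split evenly, with 11 of 22 higher in eye, 11 lower and a median difference of 0.01. With totals over proteins made equal, 5 were higher in eye and 17 lower, where 8917 of all 13456 proteins were lower. DNAJC5 (cysteine string protein), a synaptic vesicle chaperone, stood at 73.5 RPKM in eye and 101 RPKM in retina, a difference of -0.46. These transcripts had 4444 bases in eye and 4437 in retina. A second DNAJC5 transcript in retina, of 816 bases, stood at 31.7 RPKM. By best-matching transcripts, which set that one against the same eye transcript, the difference was 1.19, so its direction depends on the transcript used. DNAJC8, a splicing-associated member, stood at 52.6 RPKM in eye and 52.9 RPKM in retina, and DNAJC7, a co-chaperone of HSP70 and HSP90, at 40.2 RPKM in eye and 37.7 RPKM in retina.

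The 2 class C members at least 2-fold higher in eye were DNAJC9 and DNAJC1. DNAJC9, a histone chaperone, stood at 60.7 RPKM in eye and 29.7 RPKM in retina, on 2813 and 2707 bases, a difference of 1.01 at the edge of the 2-fold mark, or 0.92 with a pseudocount of 5. DNAJC1, of the endoplasmic reticulum membrane, stood at 7.13 RPKM in eye and 2.68 RPKM in retina, a difference of 1.14, or 0.66 with a pseudocount of 5. DNAJC15, a mitochondrial import factor, had the lowest difference of the class, -0.60, from a retina fragment of 393 bases, and 0.27 with near-complete transcripts. In 1 table only were DNAJC5B in eye, and DNAJC2, a ribosome-associated J protein, at 6.78 RPKM in retina, and DNAJC22 in retina.

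The TCP-1 chaperonin was measured in all its subunits, and the 8 subunits of the general complex lay in a narrow band, from 36.4 to 97.2 RPKM in eye and from 32.1 to 106 RPKM in retina. Of these 8, 6 were lower in eye and 2 higher, none reached 2-fold, and their median difference was -0.07. CCT4 was the highest in eye, at 97.2 RPKM, and stood at 99.1 RPKM in retina. CCT7 was the highest in retina, at 79.1 RPKM in eye and 106 RPKM in retina, and had the largest difference of the 8, -0.41. CCT5 stood at 80.2 RPKM in eye and 92.3 RPKM in retina, and CCT8 at 78.5 RPKM in eye and 82.2 RPKM in retina.

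CCT6A stood at 73.6 RPKM in eye and 77.3 RPKM in retina, and CCT3 at 66.3 RPKM in eye and 73.5 RPKM in retina. TCP1, the alpha subunit, stood at 61.9 RPKM in eye and 59.4 RPKM in retina. CCT2 was the lowest of the 8 in both tissues, at 36.4 RPKM in eye and 32.1 RPKM in retina. TCP1 and CCT2 were the subunits that stood higher in eye, and both were lower when totals were made equal, at -0.21 and -0.09. With the median of all proteins on that scale, -0.25, taken off, they stood at 0.03 and 0.16. By best-matching transcripts all 8 were lower, CCT8 at -0.67. The order of the subunits was alike at its ends, with CCT2 and TCP1 lowest in each tissue, while CCT4, CCT5 and CCT7 were the 3 highest in each. CCT6B, the zeta subunit variant known from testis, was far lower, at 5.70 RPKM in eye and 3.62 RPKM in retina.

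**Figure D4:**
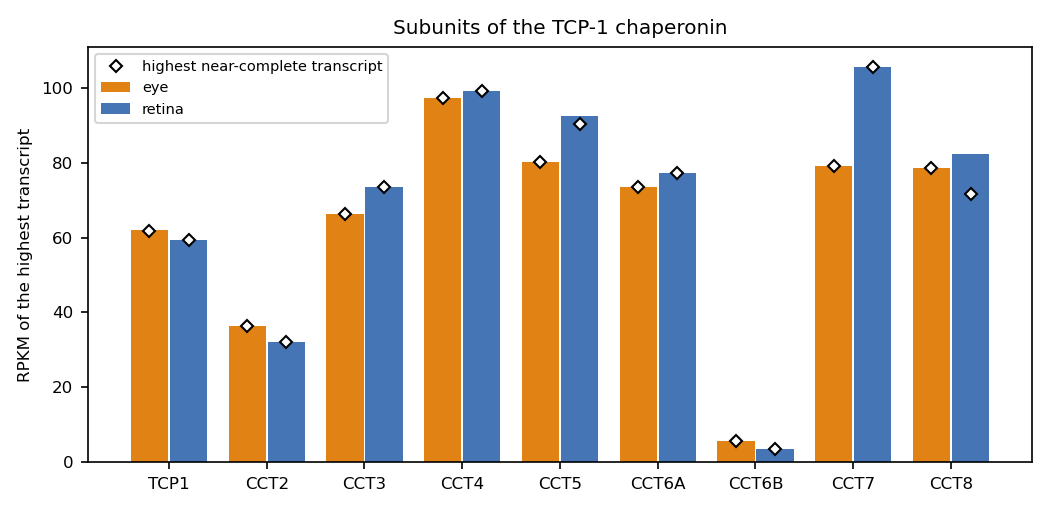
Level of the highest transcript (bars, RPKM) of each TCP-1 chaperonin subunit in eye (left bar) and retina (right bar), with diamonds for the highest near-complete transcript. The 8 subunits of the general complex lie between 32.1 and 106 RPKM in both tissues, and CCT6B lies at 5.70 RPKM in eye and 3.62 RPKM in retina.

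The unplaced member, a transcript hit to the fly heat shock protein 67B2, stood at 11.4 RPKM in eye and 10.7 RPKM in retina. Its hits reached 58% similarity, against a median of 94% over the members' transcripts in eye and 97% in retina, and no gene name is given to it.

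A list of 42 genes that work with the members but carry other descriptions was compared in the same way. Of the 39 in both tables, 22 were higher in eye and 17 lower, 1 was at least 2-fold higher and 0 lower by that much, with a median difference of 0.07. Their shares set beside the background of 11.8% and 3.6% come to 2.56% and 0%. When totals over proteins were made equal the median was -0.20, beside -0.25 for all proteins. The sign of the list thus depends on the scaling, while its median was above that of all proteins on both scales. With equal totals 8917 of the 13456 proteins compared were lower in eye, and the group counts below are to be read beside that.

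Heat shock factors, which switch on the stress genes, did not share a direction. HSF1, the main stress factor, stood at 25.8 RPKM in eye and 29.3 RPKM in retina, a difference of -0.18 that was 0.38 by best-matching transcripts. HSF2, tied to development, stood at 17.0 RPKM in eye and 27.6 RPKM in retina. HSF4, required for lens fibre maturation, stood at 7.46 RPKM in eye and 4.47 RPKM in retina, a difference of 0.63. HSBP1, a negative regulator of HSF1, stood at 102 RPKM in eye and 71.4 RPKM in retina.

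Among chaperones of the organelles, 5 of 6 were higher in eye and HSPA9 was lower, and with equal totals 2 were higher and 4 lower. HSPE1 (HSP10), the lid of the mitochondrial chaperonin, stood at 95.8 RPKM in eye and 34.6 RPKM in retina, a difference of 1.44 and the only one of the list at 2-fold. HSPD1 (HSP60), the chaperonin that HSPE1 closes and its direct neighbour in the RefSeq annotation, stood at 54.4 RPKM in eye and 47.5 RPKM in retina, a difference of 0.19. HSPA9 (mortalin), the mitochondrial HSP70, stood at 50.0 RPKM in eye and 88.2 RPKM in retina, a difference of -0.81. These transcripts had 5140 bases in eye and 2794 in retina, and with near-complete transcripts the HSPA9 difference was -0.57. How far the unequal lengths set it was not tested. In the endoplasmic reticulum HSPA5 (BiP) stood at 91.0 RPKM in eye and 81.3 RPKM in retina, and HSP90B1 at 66.2 RPKM in eye and 60.4 RPKM in retina. HYOU1, an HSP110-like chaperone of the same compartment, stood at 8.80 RPKM in eye and 6.21 RPKM in retina, a difference of 0.44.

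HSP70 partners were higher in eye in 5 of 13 and lower in 8, or 2 and 11 with equal totals. BAG1, a nucleotide exchange factor, stood at 152 RPKM in eye and 96.3 RPKM in retina, a difference of 0.65. STUB1 (CHIP), the ubiquitin ligase that acts on HSP70 clients, stood at 93.1 RPKM in eye and 144 RPKM in retina, a difference of -0.62. Its retina transcript has 264 bases, and by best-matching transcripts, at 27.4 RPKM in eye, the difference was -2.35. STIP1 (HOP), which links HSP70 to HSP90, stood at 70.2 RPKM in eye and 90.0 RPKM in retina. BAG3, the partner of HSPB8, stood at 42.1 RPKM in eye and 40.1 RPKM in retina, a difference of 0.07 beside the 1.63 of HSPB8. ST13 (HIP) was listed in retina only, at 61.6 RPKM.

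HSP90 partners were higher in eye in 3 of 8 and lower in 5, or 1 and 7 with equal totals. CDC37, which brings kinases to HSP90, stood at 117 RPKM in eye and 96.9 RPKM in retina. FKBP4, a prolyl isomerase of steroid receptor complexes, stood at 97.6 RPKM in eye and 64.9 RPKM in retina, a difference of 0.58 that was -0.06 by best-matching transcripts. AHSA1, which speeds the ATPase of HSP90, stood at 83.9 RPKM in eye and 92.3 RPKM in retina. PTGES3 (p23), which holds the closed form, stood at 83.2 RPKM in eye and 93.9 RPKM in retina. UNC45B, the myosin chaperone of striated muscle, was listed in eye only, at 1.64 RPKM.

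Chaperonin partners were higher in eye in 7 of 8, with a median difference of 0.26, while 6 of the 8 general subunits were lower. With equal totals 4 of these partners were higher and 4 lower. The prefoldin subunit PFDN5, part of the complex that hands actin and tubulin to the chaperonin, stood at 122 RPKM in eye and 100.1 RPKM in retina. PFDN6 stood at 65.9 RPKM in eye and 63.0 RPKM in retina, and PFDN1 at 42.5 RPKM in eye and 33.8 RPKM in retina. VBP1, another prefoldin subunit, stood at 28.1 RPKM in eye and 27.0 RPKM in retina. PDCL, which works with the chaperonin on G protein beta subunits such as that of transducin, went the other way, at 16.0 RPKM in eye and 21.1 RPKM in retina. PFDN2 was listed in eye only, at 41.3 RPKM.

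**Figure D5:**
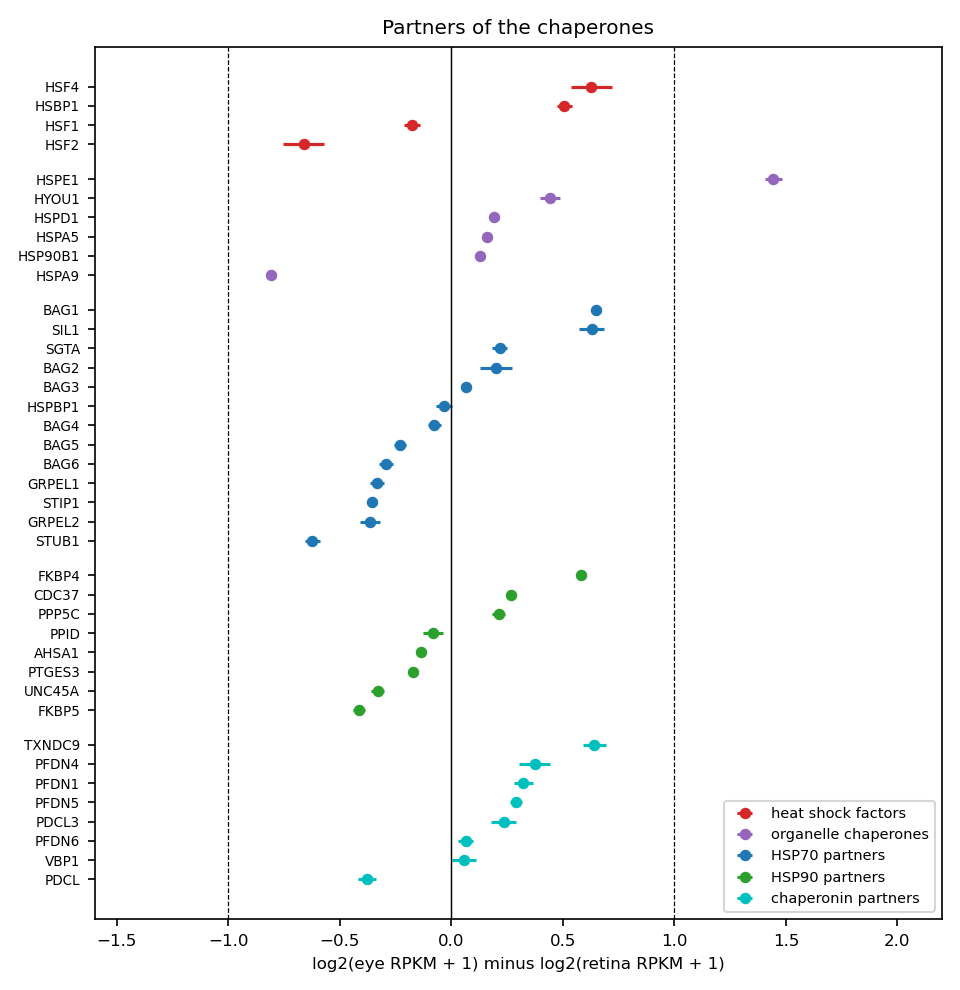
Difference between eye and retina on the log2(RPKM + 1) scale (x axis) for the 39 partner genes in both tables, in 5 groups, with bars for the 95% counting interval and dashed lines at 2-fold. HSPE1 at 1.44 is the only gene beyond 2-fold, and HSPA9 at -0.81 is the lowest.

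The sign of small differences rested on the choice of transcript and scale. Over the 12 alternatives, 42 of the 69 members kept the sign of their difference wherever it had a value, and 27 changed it in at least 1. The pseudocount and filter alternatives cannot change a sign, so only the others bear on such counts. Of the 10 members at least 2-fold apart, 9 kept their sign, and HSPA2 was the exception. With the levels rescaled to equal totals over proteins the median of all proteins was -0.25 and that of the members -0.31. All proteins then split into 9.11% at least 2-fold higher and 6.85% lower. On that scale, before its shift is taken off, 5 members passed the 2-fold mark upward in eye and 4 downward. After the median of all proteins was taken off, 7 were at least 2-fold higher and 2 lower. HSPB1 at 3.35, HSPB6 at 2.60, HSPA12B at 2.36, HSPB2 at 2.29, HSPB8 at 1.62, DNAJC1 at 1.18 and HSPB11 at 1.04 were then the higher ones. HSPA2 at -2.45 and HSPA4L at -1.29 were the lower ones, while DNAJA1 stood at -0.90 and the name HSP70 at -0.82.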

How the data were processed

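Levels came from the authors' tables, 1 per tissue, with an expression value, length and best hit per transcript, and from their Swiss-Prot hit tables. The deposited values were read as RPKM, since value times length was a whole multiple of 1 constant within 0.01 reads for 100% of transcripts, while the file headers name no unit. Recovered reads summed to 19.2 times the scaling total in eye and 10.5 times in retina, so reads may recur across transcripts. Per the file headers, the hit tables give an E-value, which is used here like a p-value for ranking hits only, a bit score, and a similarity in percent. The submitters' processing notes name Bowtie, without a version. The assembler and the mode by which reads were counted were not given in the sources used here.

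Transcripts were grouped by the Swiss-Prot name before the species code, and the highest set the level. Names found in both tables were compared if 1 tissue reached 1 RPKM, with a pseudocount of 1, and called at 2-fold. A near-complete transcript aligns over at least 90% of the longest alignment of its name in either table. Intervals are Poisson at 95%. Of the 70 member names given a mammalian gene symbol, 67 were found in the RefSeq table, and 5 names have none. A transcript hit to a probable heat shock protein of a fungus that shares the name of HSPA1A was left out.

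Members and lists were chosen with earlier results of these data known. Genes named are the 4 highest of each family, each chaperonin subunit, each member at least 2-fold apart and up to 4 partners per group, and others stand as remaining members, chosen after their values were seen. Alternatives covered the pseudocount, the filter, the transcript used, the hits and the scaling, and the one on near-complete transcripts was added after seeing the data. The functions were tested on simulated data. Python 3.11.15, pandas 2.3.3, numpy 2.4.6 and matplotlib 3.10.9 were used.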

Additional observations from a re-analysis of the deposited data

How the results depend on the processing

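No paired analysis was possible because the tables give 1 value per tissue, and for the same reason no library could be left out. Merging names of one gene was not run: no 2 names shared a gene symbol, and the 5 names without one, which may be fragments of genes named elsewhere, could not be assigned. The 8 members at least 2-fold higher in eye became 4 with a pseudocount of 5 (background 6.09%), 5 with equal totals (9.11%) and 12 when transcripts were summed (16.8%). The 2 members at least 2-fold lower became 17 when transcripts were summed (background 19.3%), 4 with equal totals (6.85%), 1 with transcripts of 200 bases or more (3.54%), 1 with an E-value of 1e-20 or lower (3.23%), and 0 with best-matching (3.12%) or near-complete transcripts (2.01%). The members' median of -0.04 was -0.15 with a filter at 10 RPKM and -0.31 with equal totals, where the median of all proteins was -0.25. The partners' median of 0.07 was -0.34 for sums, 0.13 for best-matching transcripts, 0.11 for near-complete ones and -0.20 with equal totals. HSPA2 turned from -2.42 to 2.05 with best-matching transcripts, and to 2.06 with transcripts of 200 bases or more, with the stricter E-value and with near-complete ones. These 3 alternatives leave out its short retina transcripts by construction, and for the other changes the cause was not tested. The small heat shock protein median lay between 1.37 and 2.23 throughout. Depth was not the limit for most members, while HSPA12B in retina rests on 28 reads.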

Other observations

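Relatives of the members carry other Swiss-Prot descriptions, and the ones below were chosen after their values were seen. A pair of J-domain proteins recruits HSC70 to clathrin coats. Auxilin (DNAJC6), the neuronal form, stood at 22.9 RPKM in eye and 36.3 RPKM in retina, a difference of -0.65. GAK, the ubiquitous form, stood at 21.6 RPKM in eye and 17.1 RPKM in retina, a difference of 0.31 that was -0.13 with near-complete transcripts. SEC63, the J protein of the translocon of the endoplasmic reticulum, stood at 22.0 RPKM in eye and 12.5 RPKM in retina, a difference of 0.77 that was 0.18 by best-matching transcripts. DNAJC19, of the mitochondrial import motor, stood at 26.4 RPKM in eye and 23.2 RPKM in retina, a difference of 0.18 that was 1.39 with near-complete transcripts.

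Chaperonin-like proteins named for Bardet-Biedl syndrome are tied to a ciliary disease with retinal degeneration. MKKS stood at 10.2 RPKM in eye and 10.6 RPKM in retina, BBS10 at 2.65 RPKM in eye and 1.89 RPKM in retina, and BBS12 at 6.85 RPKM in eye and 10.9 RPKM in retina. CRYAA, the alpha-crystallin of lens, was listed at 2350 RPKM in eye and 0.53 RPKM in retina. A putative HSP 90-alpha A2 name was listed in retina only, with 9 transcripts and 315 RPKM on 115 bases.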
